A study of Mus musculus with 6 samples.

Results

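The genes examined were those of potassium channel subunits and their relatives whose symbol starts with Kcn followed by a letter, in healing bone of mice that lack Cyp24a1, the enzyme that breaks down active vitamin D. The rule found 84 genes on 167 probe sets, of 18193 genes and 45037 probe sets in the series. They comprised 81 subunit genes and 3 non-coding RNAs (Kcnq1ot1, Kcnmb4os1 and Kcnmb4os2). A gene's value came from its brightest probe set, by the mean of the 6 arrays, and for Kcnq5 all 3 probe sets are given. The tissue was callus, the repair tissue at a fracture, in 3 samples from Cyp24a1 (-/-) mice, called null, and 3 from Cyp24a1 (+/-) littermates, called heterozygous, so that both groups carry at least 1 disrupted allele and no wild-type group was used. All mice were of a C57BL6J x 129SV mixed background and 12 weeks old, had the tibia cut and held by a rod in the marrow cavity, and were sampled at day 14. Total RNA was read on 6 Affymetrix Mouse 430_2 arrays. Whether the 6 samples are 6 different mice is not stated in the labels, so each p-value reflects only the spread among these arrays, which may be technical.

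Potassium channels let potassium ions leave or enter the cell and set its resting voltage. Voltage-gated subunits (Kcna to Kcnd, Kcnh and Kcnq) open on depolarisation, inward rectifiers (Kcnj) hold the resting voltage, and 2-pore channels (Kcnk) carry background current. Calcium-activated channels (Kcnma and Kcnn) couple the voltage to calcium, while auxiliary subunits (Kcne, Kcnab, Kcnip and Kcnmb) alter gating and traffic. Kcnq5 encodes a KCNQ subunit of the slow M-type current, described in brain, skeletal muscle and smooth muscle.

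The values are log2 and have no detection call, so the level of receptors of the nose was used as a guide to background. The floor of an array was the 95th percentile of its 79 probe sets for olfactory, vomeronasal and trace amine receptors, and it lay between 3.50 and 3.79 on the log2 scale over the 6 arrays. Probe sets differ in their own background, so a value over the floor is a guide and not a detection. The callus held bone, cartilage and muscle RNA. On all 6 arrays, the floor was exceeded by 6 of 6 osteoblast, 4 of 6 chondrocyte and 15 of 15 skeletal muscle marker genes, against 3 of 10 neuron markers. In bulk tissue, fewer cells of a type and less RNA per cell cannot be told apart. Marrow RNA was low on null replicate 1 and heterozygous replicate 3, where the neutrophil score (the mean of its marker genes after centring each on its own mean) was -2.89 and -3.44, against 1.34 and higher on the other 4 arrays, and the erythroid score was -3.01 and -2.47. These are called the marrow-poor arrays, and differences without both are given for some of the genes. On smooth muscle and pericyte markers the score was 0.11, 0.02 and 0.11 in null callus, against -0.33, -0.09 and 0.18 in heterozygous callus. The scores of the other lists also overlapped between the groups. They ranged from -0.57 to 0.78 in null and from -0.50 to -0.02 in heterozygous callus for Schwann cells, and from 0.03 to 0.31 in null and from -0.43 to 0.24 in heterozygous callus for endothelium. For T cells they ranged from -0.38 to 0.26 in null and from -0.10 to 0.32 in heterozygous callus, and for osteoclasts from -0.84 to 0.45 in null and from -0.07 to 0.18 in heterozygous callus.

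The promoters of 3 genes that the results turn on are shown, Kcnq5 and Kcnn3 because both had lower values in null callus, and Kcna7 because it varied most between arrays. The sequences are from RefSeq on GRCm38.p6, in windows of 300 bases around a gene's start. Capitals mark the E-box CANNTG, the motif bound by myogenic and other basic helix-loop-helix factors, which was searched together with the vitamin D receptor half-sites AGGTCA and AGTTCA and the GC box GGGCGG on both strands.
Kcnq5, first start, chr1:21962601-21962900, minus strand: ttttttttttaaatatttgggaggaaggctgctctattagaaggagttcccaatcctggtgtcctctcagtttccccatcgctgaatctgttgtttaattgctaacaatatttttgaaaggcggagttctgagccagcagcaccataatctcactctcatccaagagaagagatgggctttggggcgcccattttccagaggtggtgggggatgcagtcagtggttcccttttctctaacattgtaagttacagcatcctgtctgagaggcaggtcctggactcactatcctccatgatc
Kcnq5, second start, chr1:21961893-21962192, minus strand: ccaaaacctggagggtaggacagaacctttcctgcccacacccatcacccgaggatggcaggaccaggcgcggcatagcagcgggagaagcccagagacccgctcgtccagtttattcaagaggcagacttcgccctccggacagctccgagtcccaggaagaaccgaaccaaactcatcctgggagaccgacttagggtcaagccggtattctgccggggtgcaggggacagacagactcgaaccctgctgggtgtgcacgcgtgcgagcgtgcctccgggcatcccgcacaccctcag
Kcnn3, chr3:89519914-89520213, plus strand: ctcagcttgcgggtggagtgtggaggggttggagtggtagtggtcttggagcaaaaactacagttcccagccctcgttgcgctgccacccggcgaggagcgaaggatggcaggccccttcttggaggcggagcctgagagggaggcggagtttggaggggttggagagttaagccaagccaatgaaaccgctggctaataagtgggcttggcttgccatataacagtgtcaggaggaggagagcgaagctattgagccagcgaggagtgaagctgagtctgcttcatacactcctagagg
Kcna7, chr7:45405710-45406009, plus strand: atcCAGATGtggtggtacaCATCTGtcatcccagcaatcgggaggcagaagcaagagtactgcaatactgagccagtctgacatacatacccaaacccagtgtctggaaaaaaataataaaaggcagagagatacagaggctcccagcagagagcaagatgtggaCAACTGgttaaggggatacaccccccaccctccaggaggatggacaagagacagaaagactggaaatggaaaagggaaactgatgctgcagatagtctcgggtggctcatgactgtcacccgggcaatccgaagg
The Kcna7 window holds 3 E-boxes, and the windows of Kcnq5 and Kcnn3 hold 0 of any of these motifs. The E-box was present in 72.3% of all 32851 promoter windows, AGGTCA in 16.3%, AGTTCA in 14% and the GC box in 35.7%. Among the 89 windows of the 64 channel genes found in the RefSeq table, the shares were 73%, 5.62%, 12.4% and 48.3%. These are counts of letters, from which nothing follows about binding.

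Kcnq5 had lower values in null than in heterozygous callus on every probe set. Probe set 1457587_at read 6.54, 6.87 and 6.89 on the null arrays, against 7.78, 7.69 and 7.56 on the heterozygous arrays. All null values lay below all heterozygous values, and all 3 probe sets exceeded the floor on every array. The group means were 6.77 ± 0.20 in null and 7.68 ± 0.11 in heterozygous callus (SD, n = 3 each), a null minus heterozygous difference of -0.91 (SE 0.14), or 0.533 of the heterozygous level. Probe set 1427426_at read 4.59, 4.96 and 4.86 in null callus, against 5.91, 5.46 and 5.48 in heterozygous callus, again without overlap, with a difference of -0.81 (SE 0.17). The third, 1441071_at, read 7.12, 6.13 and 6.50 in null callus, against 7.26, 6.88 and 7.92 in heterozygous callus. Here null replicate 1 lay above heterozygous replicate 2, and the difference was -0.77 (SE 0.34).

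**Figure D1:**
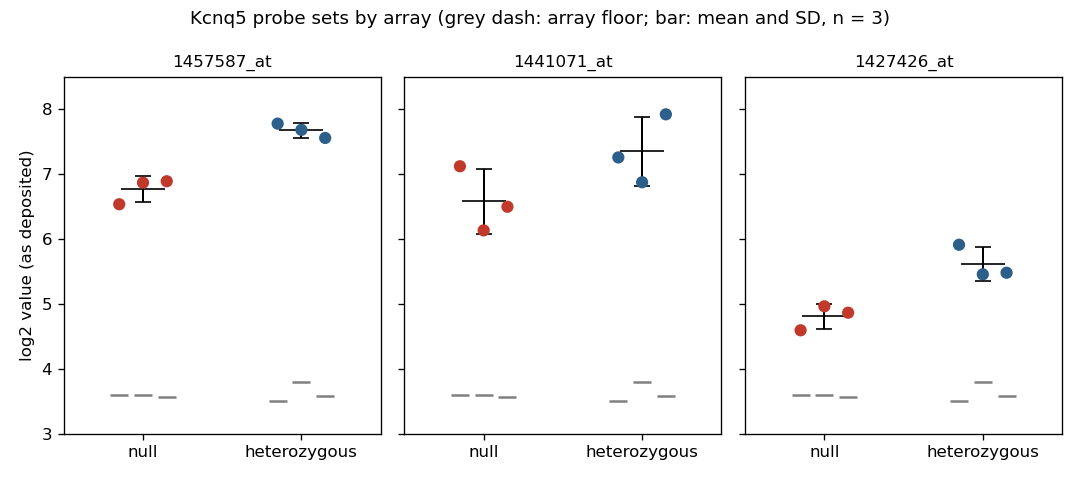
Deposited log2 values of the 3 Kcnq5 probe sets on each null (left) and heterozygous (right) array, with group mean and SD (n = 3) as bars and the floor of each array as a grey dash. On 1457587_at and 1427426_at all null points lie below all heterozygous points, and on 1441071_at null replicate 1, at 7.12, lies above heterozygous replicate 2, at 6.88.

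The Kcnq5 difference did not pass limma's test over all 45037 probe sets (adjusted p = 0.999 for each probe set). The unadjusted p was 0.000392 for 1457587_at, 0.00252 for 1427426_at and 0.0624 for 1441071_at. The two-sided exact permutation p was 0.1, 0.1 and 0.2, where 0.1 is the smallest that 3 against 3 arrays allow. Kcnq5 was examined because earlier results of these data had shown its lower level, so the tests are no independent support, and the 3 probe sets read the same RNA samples. Without null replicate 1 and heterozygous replicate 3, the differences were -0.85, -0.77 and -0.75 for 1457587_at, 1427426_at and 1441071_at. With the muscle score as a covariate they were -0.85, -0.75 and -0.96. The skeletal muscle score was -0.54, 0.21 and 0.11 on the null arrays and 0.24, 0.30 and -0.33 on the heterozygous arrays, with overlap. Both this score and 1457587_at were lowest within their groups on null replicate 1 and heterozygous replicate 3. On heterozygous replicate 3 the largest falls within the muscle score were in the markers Myh7 and Myh2. The part of muscle RNA in the Kcnq5 values was not tested beyond this covariate.

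The other KCNQ genes gave small differences. Kcnq1, the subunit of the slow cardiac and epithelial current, read 4.16, 4.19 and 4.08 in null callus, against 4.26, 4.22 and 4.33 in heterozygous callus, without overlap but with a difference of -0.13 (SE 0.10, unadjusted p = 0.233). Kcnq3, a neuronal M-current subunit, lay at or under the floor on every array, between 2.94 and 3.44. The Kcne subunits, which pair with KCNQ and other voltage-gated channels, were above the floor on all arrays for Kcne4 and Kcne1l and on none for Kcne1, Kcne2 and Kcne3. Kcne4, an inhibitory partner of Kcnq1, averaged 6.36 ± 0.08 in null and 6.22 ± 0.16 in heterozygous callus (SD, n = 3 each), with overlap. Kcne1l differed by -0.04 (SE 0.23).

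Genes whose values followed those of Kcnq5 over the 6 arrays were ranked by the root mean square difference of centred log2 values from 1457587_at, among 12962 genes above the floor on all arrays of at least 1 group. The 5 nearest were the death-associated kinase gene Dapk2, Fam110a, the aldehyde oxidase gene Aox1, the atypical kinase gene Mapk4 and the transcriptional repressor gene Bcl6, with root mean square differences from 0.144 for Dapk2 to 0.171 for Bcl6. Dapk2 read 6.97, 7.19 and 6.92 in null callus, against 7.88, 7.80 and 7.66 in heterozygous callus. Because the likeness rests on the same 6 arrays as the group difference, genes with a similar group difference come first by construction, and no test is attached to it.

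Over all 84 genes, 36 had higher and 48 had lower means in null callus, with a median difference of -0.03, against a median of -0.0017 over the 18193 genes of the series. An unadjusted p under 0.05 was reached by 4 of the 84 genes, or 4.76%, close to the 4.49% of all genes. Of these, 1 was higher in null callus (2.06% of all genes) and 3 were lower (2.43% of all genes). The groups did not overlap in 10 genes, or 11.9%, against 10.1% of all genes. Of the 10, 9 of the 84 were lower in null callus, a direction found for 5.99% of all genes, and 1 of the 84 was higher, against 4.14%. Among the 9, Kcnab3, Kcnj14 and Kcnv1 were above the floor on no array, and the other 6 exceeded it on all arrays. Of the 38 channel genes above the floor on all 6 arrays, 7 did not overlap, or 18.4%, against 10.2% of all genes above the floor. An unadjusted p under 0.05 was reached by 3 of the 38, or 7.9%, against 5.3%. With adjustment over the whole array, 0 of the 84 genes passed in limma, as did 0 of all 45037 probe sets, of which 1660 had an unadjusted p under 0.05.

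**Figure D2:**
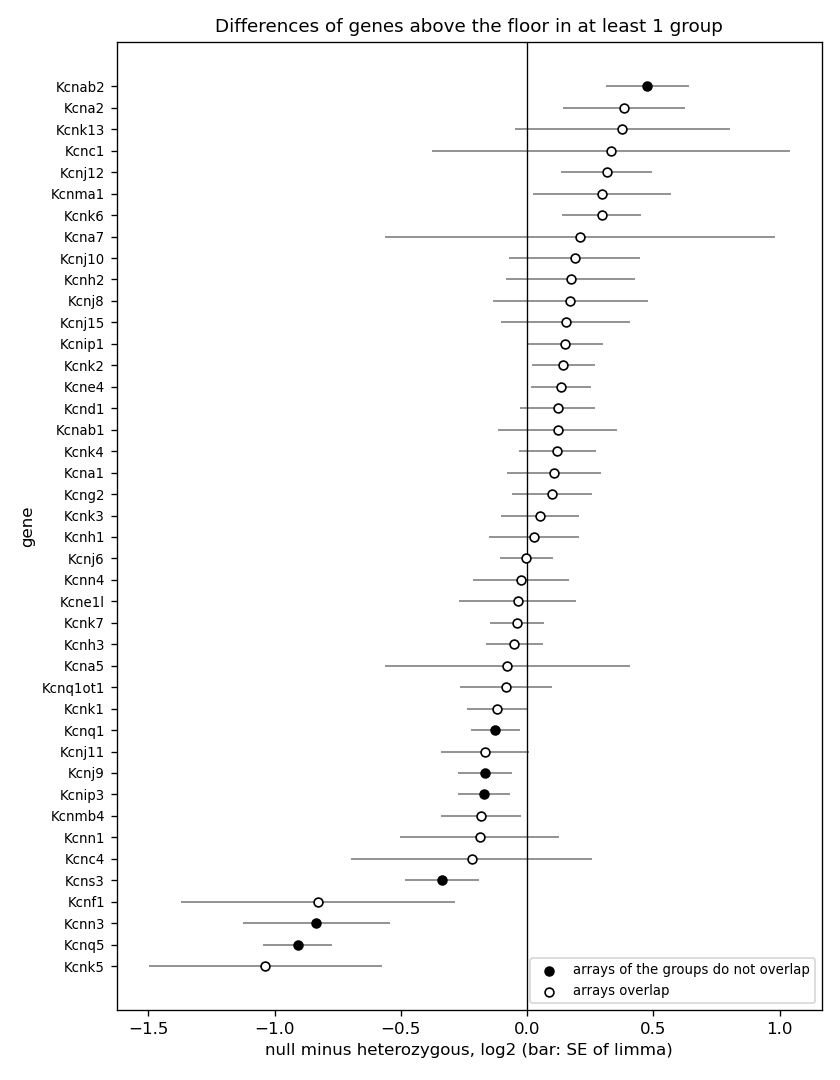
Null minus heterozygous difference (log2, horizontal axis) of the 42 genes above the floor on all arrays of at least 1 group, with the SE of limma as bars, sorted from higher in null at the top to lower in null at the bottom. Filled points mark genes whose arrays do not overlap between groups: Kcnab2 on the higher side, and Kcnq1, Kcnj9, Kcnip3, Kcns3, Kcnn3 and Kcnq5 on the lower side.

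The floor was exceeded on all 6 arrays by 38 of the 84 genes, or 45.2%, against 68.9% of all genes. A further 4 exceeded it on every array of only 1 group (Kcnip1, Kcnj6, Kcnj15 and Kcnk13), 7 on some arrays but on not every array of either group, and 35 on none. By role, the count on all 6 arrays was 2 of 3 KCNQ genes, 7 of 13 other voltage-gated genes, 3 of 9 silent modifiers and 3 of 6 EAG genes. It was 5 of 15 inward rectifiers, 7 of 12 2-pore channels, 4 of 8 calcium- or sodium-activated channels, 6 of 15 auxiliary subunits and 1 of 3 non-coding RNAs. For a gene at or under the floor in both groups no fold is given. With the floor at the 99th percentile of the receptor probe sets the count on all arrays was 22.

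Among the calcium-activated channels, Kcnn3 had lower values in null callus. Kcnn3 encodes the small-conductance channel SK3, known to rise in denervated muscle. It read 5.05, 4.95 and 4.11 on the null arrays and 5.66, 5.78 and 5.17 on the heterozygous arrays, without overlap, the lowest null value being on replicate 3. The difference was -0.84 (SE 0.29), or 0.561 of the heterozygous level (unadjusted p = 0.0259, adjusted p = 0.999 in limma), on its single probe set. Leaving out null replicate 3 gave -0.54, and leaving out both marrow-poor arrays gave -1.19. The unadjusted p was 0.0765 without heterozygous replicate 1 and 0.0830 without heterozygous replicate 2. Of the rest of this family, Kcnma1, the large-conductance channel, differed by 0.30 (SE 0.27), with values from 0.02 to 0.52 when each array was left out in turn. The lowest came without heterozygous replicate 3 and the highest without heterozygous replicate 2. With the muscle score as a covariate it was 0.43 (unadjusted p = 0.0267). Kcnn4, the intermediate-conductance channel of red cells and lymphocytes, differed by -0.02 (SE 0.19), and its 2 probe sets above the floor had opposite signs. Kcnt1 and Kcnt2, sodium-activated channels, were above the floor on no array.

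In the 2-pore family, Kcnk5, the acid-sensitive background channel TASK-2, had the largest mean difference of the 84 genes, but its arrays overlapped. It read 4.44, 5.03 and 4.50 in null callus, against 6.21, 6.27 and 4.60 in heterozygous callus. Heterozygous replicate 3, poor in marrow RNA, lay among the null values. The difference was -1.04 (SE 0.46, unadjusted p = 0.0623) over all arrays and -1.58 without heterozygous replicate 3 (unadjusted p = 0.000359, adjusted p = 0.792 in limma). Without both marrow-poor arrays it was -1.47 (unadjusted p = 0.000540, adjusted p = 0.644 in limma). An unadjusted p under 0.05 was reached by 7.77% of all genes without heterozygous replicate 3. The share was 9.52% without both marrow-poor arrays, against 4.49% over all arrays. The dimmer Kcnk5 probe set 1450398_at exceeded the floor on 1 of 6 arrays and had a difference of -0.49 (SE 0.22) without overlap. Kcnk6, a weakly active 2-pore subunit, differed by 0.29 (SE 0.16), Kcnk2, the stretch-sensitive TREK-1, by 0.14 (SE 0.12) and Kcnk1 by -0.12 (SE 0.12), all with overlap.

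**Figure D3:**
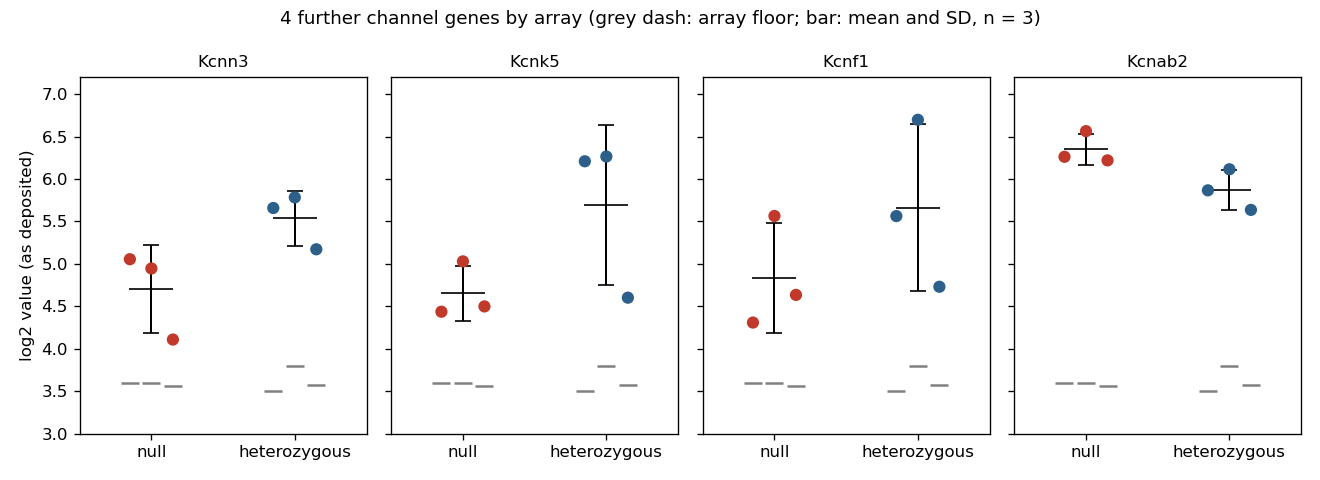
Deposited log2 values of Kcnn3, Kcnk5, Kcnf1 and Kcnab2 on each null (left) and heterozygous (right) array, with group mean and SD (n = 3) as bars and the floor of each array as a grey dash. Kcnn3 and Kcnab2 separate the groups, while the heterozygous points of Kcnk5 reach 6.27 and those of Kcnf1 reach 6.70, and both genes overlap between the groups.

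Of the 15 auxiliary subunits, 6 had higher means in null callus, and Kcnab2 was the only one of these without overlap of the groups. Kcnab2 encodes the Kv beta-2 subunit, which binds Kv1 channels and aids their traffic. Its probe set 1416956_at read 6.26, 6.56 and 6.22 in null callus, against 5.87, 6.12 and 5.64 in heterozygous callus. The groups did not overlap, and the gap between the lowest null and the highest heterozygous array was small beside the SD of 0.19 in null and 0.24 in heterozygous callus. The difference was 0.48 (SE 0.16), or 1.39-fold (unadjusted p = 0.0249, adjusted p = 0.999 in limma). Leaving out null replicate 2 gave an unadjusted p of 0.0798, and leaving out heterozygous replicate 1 or 3 gave 0.0636 or 0.0734, while the mean of both probe sets differed by 0.17. Without both marrow-poor arrays the difference was 0.40 (unadjusted p = 0.0692). The second probe set lay at or under the floor on every array. Kcnip3, a calcium-binding partner of Kv4 channels, read 4.16, 4.06 and 4.19 in null callus, against 4.34, 4.37 and 4.20 in heterozygous callus, a difference of -0.17 (SE 0.10). Kcnmb4, a partner of Kcnma1, differed by -0.18 (SE 0.16) with overlap, and Kcnab3 was above the floor on no array.

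The silent modifiers do not form channels alone and change the currents of other voltage-gated subunits. Kcns3 read 3.68, 3.90 and 3.83 in null callus, against 3.93, 4.10 and 4.39 in heterozygous callus, close above the floor and without overlap, a difference of -0.34 (SE 0.15, unadjusted p = 0.0595) that its second probe set did not share in direction. It was -0.15 without null replicate 1 and heterozygous replicate 3. Kcnf1 read 4.31, 5.56 and 4.63 in null callus, against 5.56, 6.70 and 4.73 in heterozygous callus. Its arrays overlapped widely, with a difference of -0.83 (SE 0.54) that was -0.31 without heterozygous replicate 2 and -1.30 without heterozygous replicate 3 (unadjusted p = 0.0385 for that last fit). Without both marrow-poor arrays it was -1.03. With only heterozygous replicate 3 left out, 7.77% of all genes had an unadjusted p under 0.05. Kcng2 differed by 0.10 (SE 0.16). Kcnv1 had an unadjusted p of 0.0400, but all its values, from 2.22 to 2.91, lay under the floor.

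The groups overlapped in all 13 other voltage-gated and all 6 EAG genes, against 10.1% of all genes without overlap. An unadjusted p under 0.05 was reached by 0 of 13 and 0 of 6, against 4.49% of all genes. These sets are too small to be set apart from those shares. Kcna2, a delayed rectifier of axons, read 3.68, 4.59 and 4.49 in null callus, against 3.87, 3.85 and 3.90 in heterozygous callus. Null replicate 1 lay below every heterozygous array and the other null arrays above. The difference was 0.38 (SE 0.24) over all arrays, 0.67 without null replicate 1 and 0.22 without null replicate 2. Without both marrow-poor arrays it was 0.68. Of the 4 Kcna2 probe sets, 2 had this direction. Kcnd1, a transient A-type channel, differed by 0.12 (SE 0.15), a direction shared by 1 of its 3 probe sets. In the EAG family, Kcnh2, the rapid cardiac repolarising channel, differed by 0.17 (SE 0.26) and Kcnh3 by -0.05 (SE 0.11). Kcna4, Kcnd2, Kcnh5 and Kcnh8 were above the floor on no array.

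Inward rectifiers gave 0 of 15 genes at an unadjusted p under 0.05, against 4.49% of all genes, and 15 genes are too few to differ from that share. Kcnj12, a strong rectifier of heart and muscle, read 3.68, 4.22 and 4.24 in null callus, against 3.59, 3.85 and 3.76 in heterozygous callus. The difference was 0.31 (SE 0.18) over all arrays and 0.50 without null replicate 1. With each array left out in turn it ran from 0.22 to 0.50, and without both marrow-poor arrays it was 0.51. Kcnj9, a G protein-gated subunit, read 4.08, 4.05 and 3.89 in null callus, against 4.11, 4.28 and 4.14 in heterozygous callus, a narrow separation of -0.17 (SE 0.11). Kcnj3, another G protein-gated subunit, exceeded the floor on 1 of 6 arrays and differed by -0.18 (SE 0.11). Kcnj14 was without overlap but above the floor on no array. Among the non-coding RNAs, Kcnq1ot1, the imprinted antisense transcript of Kcnq1, differed by -0.08 (SE 0.18), with 3 of 6 probe sets in that direction, and the other two were above the floor on no array.

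The 4 largest SDs over the 6 arrays were those of Kcna7 (1.08), Kcnc1 (0.998), Kcnf1 (0.875) and Kcnk5, of which the last pair was described above. Kcnc4 (0.667) and Kcna5 (0.666) came next. Kcna7, a Kv1 channel of skeletal muscle and heart, read 6.07, 8.66 and 8.35 in null callus, against 7.62, 8.34 and 6.50 in heterozygous callus. Kcnc1, a fast Kv3 channel, read 6.95, 8.85 and 8.28 in null callus, against 8.11, 8.64 and 6.34 in heterozygous callus. Of the 4 Kcnc1 probe sets, 3 shared a direction. The exception, 1456965_at, was above the floor on all arrays, ranged only from 4.46 to 4.63 and differed by -0.04 (SE 0.10). On their brightest probe sets, Kcna7 and Kcnc1 were lowest on null replicate 1 and heterozygous replicate 3 within their groups. The same held for Kcnc4, a Kv3 channel of muscle and nerve, at 7.87, 9.03 and 8.75 in null callus, against 9.08, 9.42 and 7.82 in heterozygous callus, and for Kcna5, at 3.81, 5.17 and 5.42 in null callus, against 5.09, 5.33 and 4.21 in heterozygous callus. The skeletal muscle score was also lowest on these arrays, at -0.54 and -0.33, as were the neutrophil and erythroid scores, and the part of either tissue in these values was not tested. On heterozygous replicate 3 the muscle score fell most through Myh7, at 6.75 against 11.90 and 11.56 on heterozygous replicates 1 and 2. Myh2 came next, at 11.01 against 13.47 and 13.16. Acta1, Ckm, Atp2a1, Casq1 and Myoz1 lay there between the other heterozygous arrays, and the remaining muscle markers lay lower. Group differences were 0.21 (SE 0.77) for Kcna7, 0.33 (SE 0.71) for Kcnc1, -0.22 (SE 0.48) for Kcnc4 and -0.08 (SE 0.48) for Kcna5, each smaller than its error. Without both marrow-poor arrays they were 0.53 for Kcna7, 0.19 for Kcnc1, -0.35 for Kcnc4 and 0.085 for Kcna5. Kcnj8, the pore of a vascular and smooth muscle ATP-sensitive channel, was chosen after its values were seen because its unadjusted p was 0.0149 without these arrays, with a difference of 0.62, against 0.17 (SE 0.31) over all 6. Without these arrays 9.52% of all genes had an unadjusted p under 0.05.

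**Figure D4:**
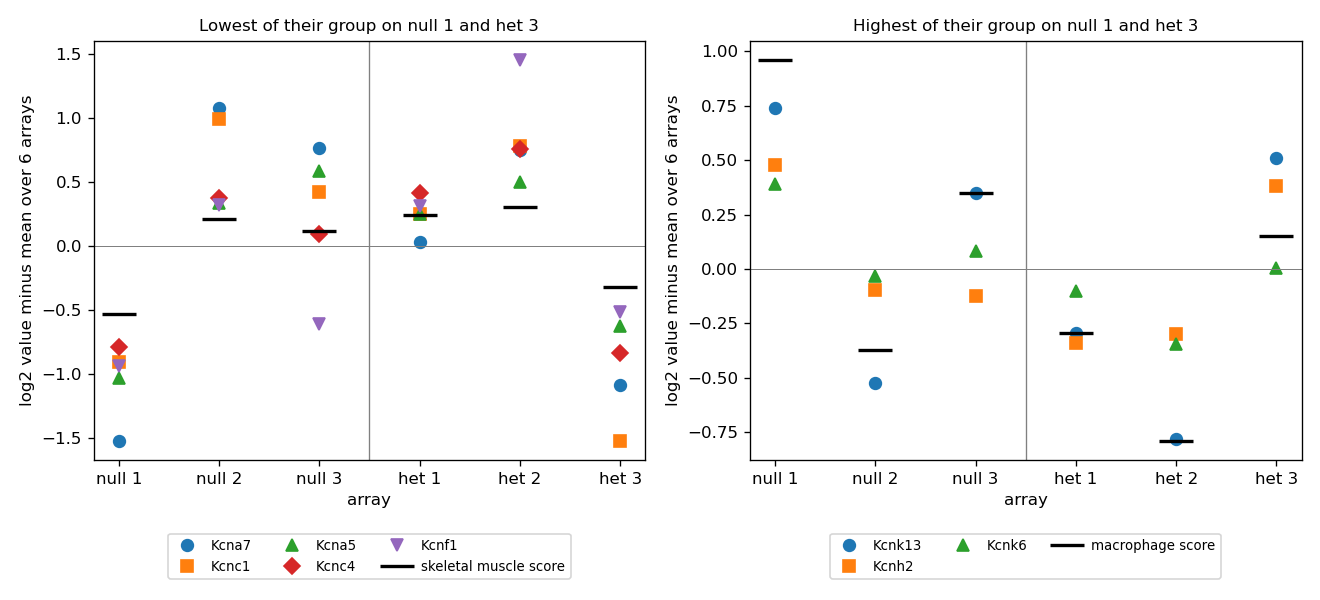
Log2 values minus the mean over the 6 arrays (vertical axis) for each array, null on the left and heterozygous on the right, for genes that were lowest (left panel) or highest (right panel) in their group on null replicate 1 and heterozygous replicate 3. Black dashes give the skeletal muscle score, which is -0.54 and -0.33 on these arrays, and the macrophage score, which is 0.96 and 0.15.

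With the muscle score as a covariate, Kcnc1 differed by 0.74 (unadjusted p = 0.00753) and Kcna7 by 0.66 (unadjusted p = 0.0141), both higher in null callus, but neither passed the adjusted test, and 9.14% of all genes had an unadjusted p under 0.05 in that fit. With the marrow score in its place, Kcnc1 differed by 0.32 (unadjusted p = 0.129) and Kcna7 by 0.19 (unadjusted p = 0.494). Of the 38 channel genes above the floor on all arrays, 12 were lowest in both groups on null replicate 1 and heterozygous replicate 3, or 31.6%, against 24.5% of all genes above the floor. Another 4, or 10.5%, were highest there (Kcne4, Kcnd1, Kcnk6 and Kcnh2), against 26.7%. Kcnk13, a 2-pore channel known from microglia and other macrophages, read 5.15, 3.89 and 4.77 in null callus, against 4.12, 3.63 and 4.92 in heterozygous callus. The macrophage score took 0.96, -0.37 and 0.35 in null callus, against -0.30, -0.79 and 0.15 in heterozygous callus, with the lowest array of each group shared by Kcnk13 and the score.

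**Figure D5:**
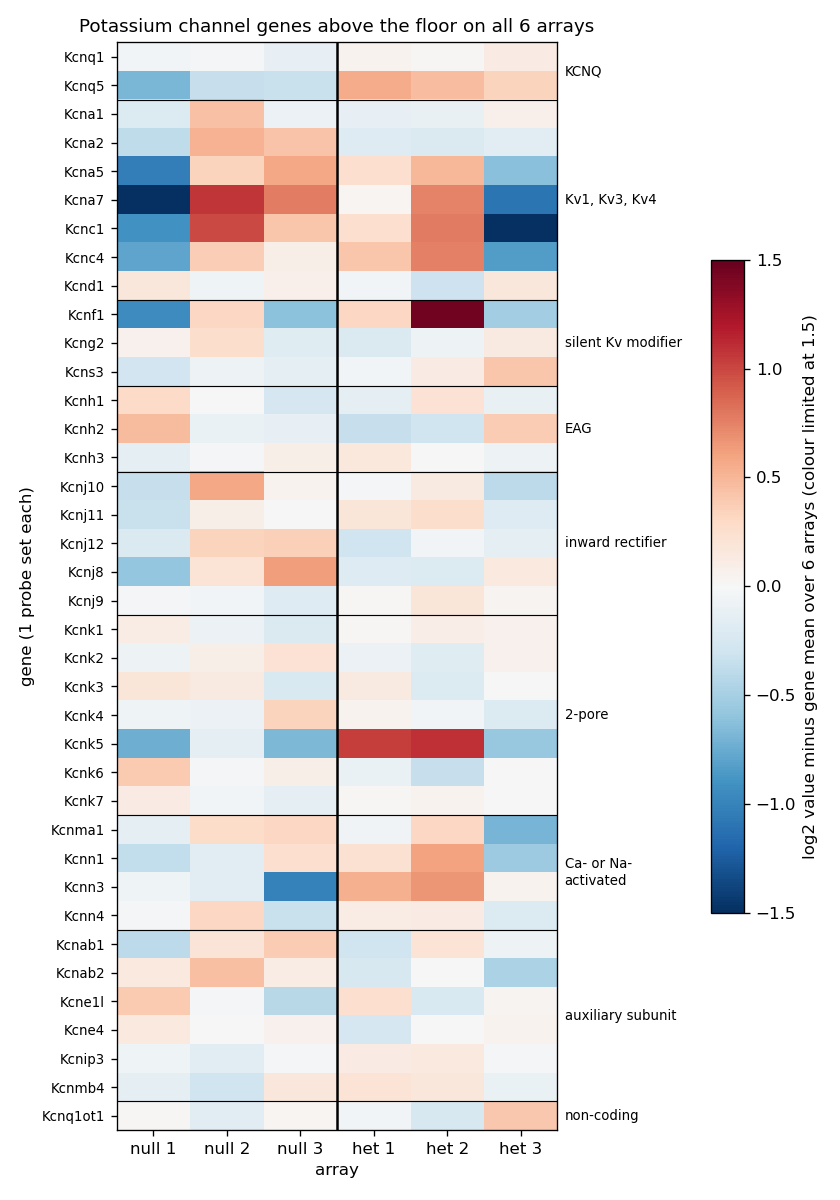
Log2 value minus the gene's mean over the 6 arrays for the 38 genes above the floor on every array, in rows by family, with null arrays in the left columns and heterozygous arrays in the right. Kcnq5 is below its mean on all null arrays and above it on all heterozygous arrays. Within their groups Kcnq5, Kcna5, Kcna7, Kcnc1 and Kcnc4 are each lowest on null replicate 1 and heterozygous replicate 3, with smaller falls for Kcnq5.

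Genes outside the Kcn names that assemble with these channels or regulate them were also counted, from a list of 29 of which 23 were measured. They include sulphonylurea receptors, Kv4 and BK partners, clustering proteins and the muscarinic receptors that close M-channels. Of the 23, 12 had higher and 11 lower means in null callus, with a median difference of 0.0074. An unadjusted p under 0.05 was reached by 0 of them, against 4.49% of all genes, and an adjusted p by 0, in limma's test. The arrays did not overlap for 2, Dpp10 and Lgi1, both above the floor on no array, against 10.1% of all genes without overlap, and 13 exceeded the floor on all arrays.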

How the data were processed

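Expression was measured in 6 callus samples on Affymetrix Mouse 430_2 arrays, per the labels. The authors deposited 1 table of values per probe set and array, taken as log2 from their range (1.65 to 14.49, array medians 4.55 to 4.59). The software, background correction, normalisation and scan batches are not given in the sources read. Columns of nearly equal distribution hide a shift of all genes together, and values near the floor compress differences.

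Of 45101 probe sets, 64 controls were left out. The platform annotation gives 34945 probe sets 1 symbol, 932 several and 9160 none. All 84 channel genes matched a RefSeq gene identifier, with 0 symbols changed. Each probe set was tested with limma 3.58.1 in R 4.3.3 (lmFit, eBayes, two-sided) on null minus heterozygous values, with Benjamini-Hochberg adjustment over 45037 probe sets and a threshold of 0.05. The fit had 4 residual and 2.50 prior degrees of freedom, and it was tested on simulated data. The number of arrays limits the precision. Alternatives covered normalisation, centring, array weights, the prior, a filter, probe set averaging, a plain test, marrow and muscle scores as covariates, other floors and left-out arrays.

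The members, marker and partner lists and tests were chosen with earlier results of these data known. Genes were named where they were Kcnq or Kcne genes, had an unadjusted p under 0.05 or no overlap above the floor, ranked among the 4 lowest p of a family or the 8 largest SDs, or had discordant probe sets. Genes named only for exceeding the floor or in a count were chosen after their values were seen. The marker lists cover skeletal muscle, neutrophil, erythroid, macrophage, smooth muscle and pericyte, neuron, Schwann cell, endothelial, T cell, osteoblast, chondrocyte and osteoclast genes.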

Additional observations from a re-analysis of the deposited data

How the results depend on the processing

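No paired analysis was possible because the labels give no replicate numbers shared between the groups. Under every refit run, with limma or the plain test, 0 channel genes passed the adjusted test. The 1457587_at and 1427426_at probe sets of Kcnq5 kept their direction and an unadjusted p under 0.05 in all 15 refits each, with differences from -0.97 to -0.79 and from -0.91 to -0.66. The third kept its direction, from -1.04 to -0.48, and had an unadjusted p under 0.05 in 6 of 15. Counts of genes at an unadjusted p under 0.05, higher and lower in null callus, were 4 and 5 with array weights, 2 and 5 with the marrow score, 6 and 4 with the muscle score, 4 and 5 without the 2 arrays with little marrow RNA, 0 and 3 with probe sets averaged per gene, 0 and 2 with the plain test, and 0 and 1 at a threshold of 0.01. As a share of members these were 10.7% with array weights against 12.1% of all genes, 8.33% against 10% with the marrow score, 11.9% against 9.14% with the muscle score and 10.7% against 9.52% without both marrow-poor arrays. With probe sets averaged the share was 3.57% against 4.23%, and with the plain test 2.38% against 4.89%. No share over all genes was counted at the threshold of 0.01. Leaving out each array gave 0 to 5 higher and 1 to 4 lower, or 2.38% to 9.52% of members against 2.81% to 7.77% of all genes. Genes without overlap of the groups numbered 11 to 24 with 1 array left out and 35 with both marrow-poor arrays left out, where fewer samples make separation easier. These were 13.1% to 28.6% of members against 15.9% to 27% of all genes, and 41.7% against 43.2%. The median difference was 0.027 over probe sets above the mean floor. The count above the floor on all arrays was 22 with the floor at the 99th percentile. The cause of each change of sign below was not tested. Differences that turned sign were, with array weights, Kcna5 at 0.11 and Kcnd2 at -0.0047. With the muscle score, they were Kcna5 at 0.20, Kcnc4 at 0.052, Kcne1 at 0.018 and Kcnn4 at 0.019. Without both marrow-poor arrays, they were Kcna5 at 0.085, Kcnd2 at -0.028, Kcne2 at 0.034 and Kcnq1ot1 at 0.067. With probe sets averaged, they were Kcnd1 at -0.092, Kcnd2 at -0.061, Kcne1 at 0.069 and Kcnn4 at 0.019, and with quantile normalisation Kcne1 at 0.00042. Leaving out each array gave ranges through 0 for Kcna5 (-0.41 to 0.42), Kcna7 (-0.28 to 1.02), Kcnc1 (-0.35 to 0.87), Kcnc4 (-0.70 to 0.12), Kcnd1 (-0.0026 to 0.23), Kcne1 (-0.18 to 0.079), Kcne1l (-0.24 to 0.16), Kcng2 (-0.0090 to 0.22), Kcnh2 (-0.024 to 0.41), Kcnh3 (-0.11 to 0.014), Kcnmb4os1 (-0.15 to 0.062), Kcnmb4os2 (-0.26 to 0.046), Kcnn4 (-0.19 to 0.14) and Kcnq1ot1 (-0.22 to 0.098). Kcnn3 kept an unadjusted p under 0.05 in 13 of 16 refits, Kcnab2 in 10 and Kcnk5 in 6. Signal near the floor limits what can be said of genes not above it on all arrays.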
